A study of Mus musculus with 6 samples.

Results

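The genes of ubiquitin transfer and of the proteasome were compared between differentiated and undifferentiated osteoblast cells. They were chosen by symbol: every gene measured on the arrays whose name starts with Ube, Psma, Psmb, Psmc or Psmd, except Ube2c, Psmb8 and Psmb9. This gave 72 of 17298 named genes, 35 Ube genes and 37 Psm genes. No gene was kept or dropped for its own value, but these families were picked with the difference between the same 2 groups of arrays in view, so the counts and medians over them are descriptions and have no test of their own. The cells were MC3T3-E1, a clonal mouse pre-osteoblast line from calvaria, at passages 5 to 12, grown in alpha MEM with 10% serum. The undifferentiated group held 3 cultures. The differentiated group held 3 cultures. These had received ascorbic acid at 50 µg/mL, which lets collagen mature, together with a phosphate source, glycerol-2-phosphate at 10 mM, over 15 days. All 6 cultures had received 100 nM 1,25(OH)2D3, the hormonal form of vitamin D, for 24 h, and vehicle cultures were not analysed here, so no value below is a response to the hormone.

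Ubiquitin is a small protein that is joined to other proteins as a mark. An activating enzyme (E1) charges it, a conjugating enzyme (E2, most genes named Ube2) carries it, and a ligase (E3, among them the Ube3 genes) places it, while E4 enzymes such as the Ube4 genes lengthen chains. Proteins with suitable chains are unfolded and cut by the proteasome, a barrel of alpha (Psma) and beta (Psmb) subunits called the core particle, capped by a regulatory particle of ATPases (Psmc) and other subunits (Psmd). In the osteoblast lineage this route sets the amounts of regulators such as RUNX2 and the Smad proteins. In mammals the transcription factor NFE2L1 raises proteasome genes together by binding antioxidant response elements.

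Sequences upstream of gene starts are shown because NFE2L1 is known to act on proteasome genes there. RefSeq windows on GRCm38.p6, from 250 bases before to 50 bases after a gene start, were matched to 60 of the 72 genes and gave 40 windows of Ube genes and 33 of Psm genes. The core TGACNNNGC, searched on both strands, was found in 5 windows of Psm genes (15.2%), in 7 of Ube genes (17.5%) and in 12.4% of all 32851 windows. The 5 Psm genes were Psmb5, Psmb6, Psmc6, Psmd9 and Psmd12. Psmb1, Psmb2, Psmb7, Psmc3, Psmd3 and Psmd7 had no matched window and were not searched. The families differed more in base composition. The GC box GGGCGG was found in 80.0% of Ube windows, 54.5% of Psm windows and 35.7% of all windows, and the median GC share of a window was 68.8%, 56.7% and 52.7%. The CCAAT box was found in 8 of 40 Ube windows and 13 of 33 Psm windows (39.4%) against 37.4% of all windows, and the cAMP element TGACGTCA in 5.0%, 0.0% and 1.8%. All motifs were searched on both strands, and TGACGTCA and TGACNNNGC begin alike and can overlap. A match is a stretch of letters only. The 250 bases before the start are printed 5′ to 3′ for the 2 catalytic subunits with TGACNNNGC and for the 3 Ube genes with the most stable differences described below. Capitals mark TGACNNNGC on either strand in Psmb5, Psmb6 and Ube2q2, and GGGCGG on either strand in Ube3a and Ube2g1. The windows of Psmb6 and Ube2q2 also hold GGGCGG, which is not marked there. Another window of Ube2q2, not printed, holds GGGCGG and no TGACNNNGC.
Psmb5 (chr14:54617996-54618245, - strand): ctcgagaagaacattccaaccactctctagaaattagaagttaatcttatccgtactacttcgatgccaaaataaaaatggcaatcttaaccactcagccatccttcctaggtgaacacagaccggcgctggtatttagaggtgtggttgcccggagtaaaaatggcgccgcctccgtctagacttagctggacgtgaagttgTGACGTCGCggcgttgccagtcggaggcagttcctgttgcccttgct
Psmb6 (chr11:70525107-70525356, + strand): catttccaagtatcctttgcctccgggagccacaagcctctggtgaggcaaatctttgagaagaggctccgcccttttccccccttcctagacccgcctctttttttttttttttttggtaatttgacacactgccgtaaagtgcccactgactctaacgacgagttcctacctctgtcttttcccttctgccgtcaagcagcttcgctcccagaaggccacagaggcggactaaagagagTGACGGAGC
Ube3a (chr7:59228500-59228749, + strand): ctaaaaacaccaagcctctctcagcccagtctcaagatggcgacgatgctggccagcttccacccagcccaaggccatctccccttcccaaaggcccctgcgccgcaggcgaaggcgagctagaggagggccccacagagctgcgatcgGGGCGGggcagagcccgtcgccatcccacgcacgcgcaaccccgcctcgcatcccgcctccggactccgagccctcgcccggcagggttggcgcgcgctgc
Ube2g1 (chr11:72607011-72607260, + strand): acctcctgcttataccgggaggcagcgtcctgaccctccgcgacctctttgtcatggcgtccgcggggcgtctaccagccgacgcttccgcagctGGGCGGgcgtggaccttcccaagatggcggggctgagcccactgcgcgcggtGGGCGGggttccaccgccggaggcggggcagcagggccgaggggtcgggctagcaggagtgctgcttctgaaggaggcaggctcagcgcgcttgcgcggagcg
Ube2q2 (chr9:55149119-55149368, + strand): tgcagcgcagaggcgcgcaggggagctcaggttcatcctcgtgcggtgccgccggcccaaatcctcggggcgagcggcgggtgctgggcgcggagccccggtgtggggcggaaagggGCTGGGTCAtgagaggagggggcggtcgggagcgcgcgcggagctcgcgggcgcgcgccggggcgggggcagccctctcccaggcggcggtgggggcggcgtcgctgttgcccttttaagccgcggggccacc

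A feature of mostly 9 probes gave each gene a log2 expression value, and each member had 1 feature. No member lay at or below the control feature of random probes (6.59 to 6.81 log2) on all arrays of a group. Undifferentiated replicate 3 stood apart: across genes, its Pearson correlation with replicates 1 and 2 was 0.979 and 0.986, against 0.994 between those 2 and 0.993 to 0.996 among the differentiated arrays. Counts of calls are therefore given with and without it, and so are the named genes whose call it changes. The image stamps in the files differ between the 2 groups and not within them, so the stamp and differentiation cannot be told apart. Of 7 osteoblast markers, Alpl, Bglap and Sp7 were called higher in the differentiated group, whereas Runx2, Col1a1, Spp1 and Ibsp were not called. Of the markers of other cell types, 1 of 5 for adipocytes (Pparg), 2 of 4 for endothelium (Tek, Pecam1) and 1 of 4 for chondrocytes were called higher, 1 for chondrocytes lower, and 0 of 4 each for macrophages and skeletal muscle. Without undifferentiated replicate 3 the osteoblast, endothelial and chondrocyte counts were the same, 3 adipocyte markers were higher and 1 lower, and 1 macrophage and 2 muscle markers were higher. Among all named genes, 8.58% were called higher and 10.9% lower with all arrays, and 24.8% and 20.2% without that array. The endothelial marker Cdh5 did not exceed the random probes in either group. The summed level of the adipocyte markers was 11.12 to 11.17 log2 in undifferentiated and 11.12 to 11.34 in differentiated cells, and that of the endothelial markers 10.05 to 10.24 and 10.48 to 10.60. The part of such cells in the results was not tested. In RNA of whole cultures, fewer cells with a transcript and less transcript per cell cannot be told apart.

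Ube genes lay lower in differentiated cells, while Psm genes lay close to their undifferentiated level. In limma's moderated test over all named genes, with Benjamini-Hochberg adjustment and a call at an adjusted p under 0.05, 9 of 35 Ube genes were lower (25.7%) and 0 were higher. Among Psm genes, 2 of 37 were lower (5.4%) and 0 were higher. Of all named genes, 19.5% were called, 10.9% lower and 8.58% higher. The median log2 difference, differentiated minus undifferentiated, was -0.33 over Ube genes, -0.04 over Psm genes and 0.08 over all named genes. The difference was below 0 in 30 of 35 Ube genes, 24 of 37 Psm genes and 40.6% of all named genes. At an unadjusted p under 0.05 there were 17 Ube and 3 Psm genes, against 36.8% of all named genes. The differences of the Ube genes spread from -1.36 to 0.22 and those of the Psm genes from -0.64 to 0.25.

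**Figure D1:**
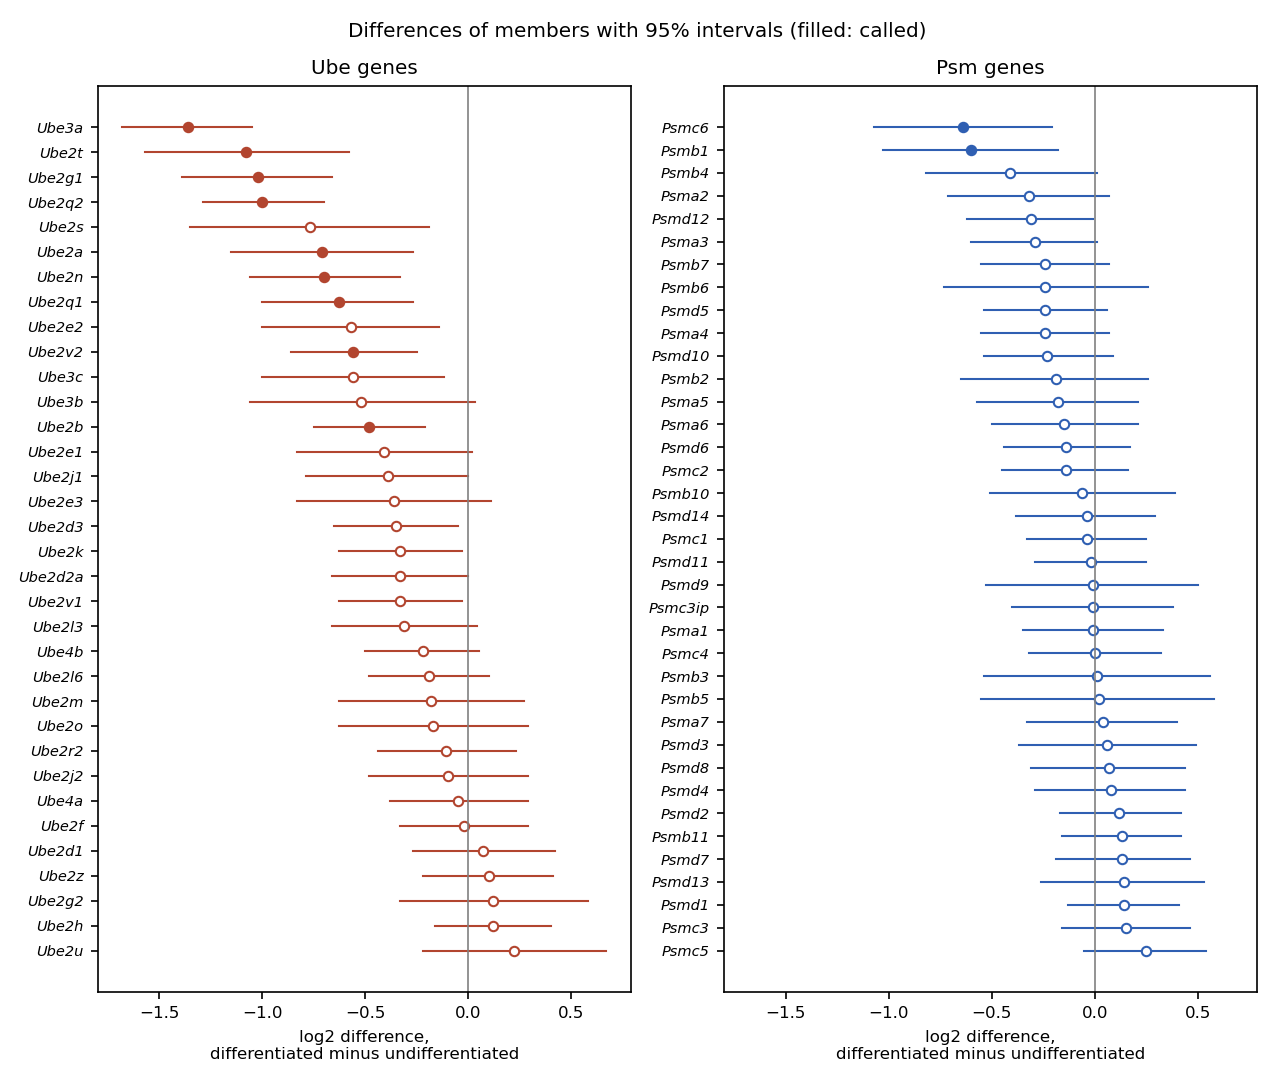
Log2 difference (differentiated minus undifferentiated, x axis) of the Ube genes (left) and Psm genes (right) shown, with the 95% interval of the limma fit over 6 arrays as a line. Filled points passed the test: 9 Ube genes and 2 Psm genes, all below 0.

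These counts moved with single arrays. Without undifferentiated replicate 3, 19 Ube genes and 10 Psm genes were lower and 0 of either were higher, against 20.2% lower and 24.8% higher of all named genes, with medians of -0.43 and -0.17. Leaving out differentiated replicate 1, 2 or 3 gave 3, 8 and 4 lower Ube genes, and leaving out undifferentiated replicate 1 or 2 gave 6 and 4. Of all named genes, 1354, 2029, 1646, 2381 and 1495 were called in these 5 fits, against 3367 with all arrays. Neither of the 2 Psm calls was made in any of those 5 fits. The gap between the medians of the families was -0.29 with all arrays and -0.39 to -0.22 when any array was left out. Groups that did not overlap, with every differentiated array below every undifferentiated array, were seen for 17 Ube genes and 4 Psm genes, against 17.4% of all named genes. The opposite order was seen for 0 Ube genes and 2 Psm genes, Psmd1 and Psmc5, against 22.7% of all named genes.

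The families also differed in their level on the arrays. The middle 50% of Ube genes had a mean log2 value of 10.36 to 12.02 and the middle 50% of Psm genes 12.65 to 13.27. Among the 3930 other named genes in the first range, 16.8% were called lower and the median difference was -0.06, compared with 5 of 17 Ube genes (29.4%) and a median of -0.41. Among the 736 other named genes in the second range, 12.0% were called lower and the median was -0.09, compared with 0 of 19 Psm genes and a median of -0.14. Without undifferentiated replicate 3 the order of the Psm shares changed, with 6 of the 19 Psm genes lower (31.6%) against 25.4% at their level. Of the 17 Ube genes, 9 were then lower (52.9%) against 32.1% at theirs. The 5 Psm genes in the Ube range had a median of -0.06, and the 3 Ube genes in the Psm range had a median of -0.22. In the first range the difference was below 0 in 56.0% of other named genes and 88.2% of Ube genes. In the second it was below 0 in 60.2% of other named genes and 68.4% of Psm genes. Groups did not overlap, differentiated lower, in 25.9% of other named genes and 41.2% of Ube genes in the first range. In the second range these shares were 27.0% and, for Psm genes, 10.5%. The opposite order was seen in 16.4% and 14.0% of other named genes and 0 of these members. The plot of level and difference sets both families against all named genes.

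**Figure D2:**
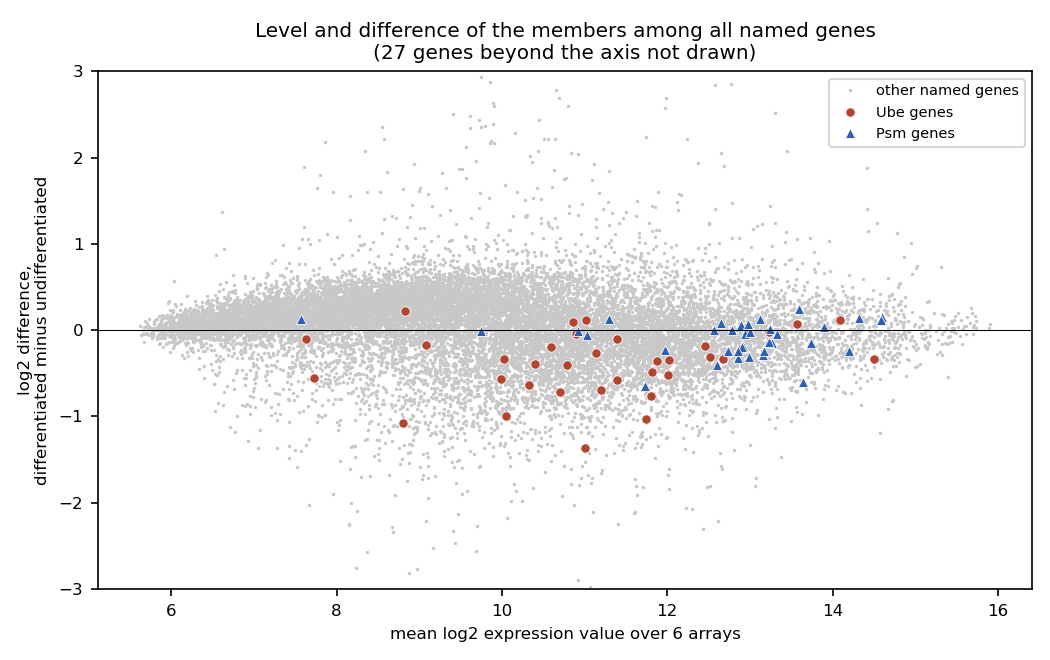
Mean log2 expression value over 6 arrays (x axis) and log2 difference, differentiated minus undifferentiated (y axis), for all named genes (grey), Ube genes (red circles) and Psm genes (blue triangles). The 37 Psm genes have a median difference of -0.04, and the 35 Ube genes, of which 30 lie below 0, one of -0.33.

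Among the ligases, Ube3a had the largest difference of all members. It encodes E6AP, the founding HECT ligase, an imprinted gene in neurons whose loss causes Angelman syndrome in people. Its values were 11.81, 11.62 and 11.64 in undifferentiated replicates 1 to 3 and 10.09, 10.42 and 10.47 in differentiated replicates 1 to 3. All 3 differentiated arrays lay more than 1 log2 unit below the lowest undifferentiated array, and undifferentiated replicate 3 read like its own group. Ube3a fell 2.58-fold (log2 difference -1.36 with a 95% interval of -1.68 to -1.05, adjusted p = 0.000143) and was called in all 16 other settings. The other HECT genes behaved otherwise across the undifferentiated arrays. Ube3b read 12.64, 12.60 and 11.56, the third value lying below the differentiated values of 11.78, 11.71 and 11.75. Its difference was -0.52 (adjusted p = 0.154), and without undifferentiated replicate 3 -0.87 (adjusted p = 5.57e-05). Ube3c differed by -0.56 without passing (adjusted p = 0.0721, and 0.00161 without that array), and its nearest arrays of the 2 groups were equal to the second decimal. The chain-lengthening U-box genes Ube4b and Ube4a differed by -0.22 (adjusted p = 0.215) and -0.05 (adjusted p = 0.838).

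Of the 30 Ube2 genes, 8 fell, 0 rose and 22 did not pass, against 10.9% lower and 8.58% higher of all named genes. Without undifferentiated replicate 3, 16 were lower and 0 higher, against 20.2% and 24.8% of all named genes. The 3 largest differences after Ube3a were in Ube2t, Ube2g1 and Ube2q2. Ube2g1, a conjugating enzyme that extends chains on substrates of cullin ligases, read 12.16, 12.58 and 12.04 in undifferentiated and 11.03, 11.34 and 11.34 in differentiated cells. The groups were 0.70 log2 units apart at their nearest arrays, and the gene fell 2.03-fold (adjusted p = 0.00227). Ube2q2, an enzyme with a long additional N-terminal region, read 10.61, 10.59 and 10.43 against 9.50, 9.71 and 9.43. It fell 2.00-fold (adjusted p = 0.000673), and each group kept within 0.27 log2 units. Its paralog Ube2q1 fell 1.55-fold (adjusted p = 0.0241), from 10.86, 10.78 and 10.28 to 9.95, 10.13 and 9.96, with undifferentiated replicate 3 nearest to the differentiated arrays. Ube2g1 and Ube2q2, like Ube3a, were called in all 16 other settings. No other member was called in every setting that tested it.

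Ube2t and Ube2s belong to enzymes tied to dividing cells. Ube2t, which marks the FANCD2 protein in repair of crosslinked DNA, read 9.76, 9.35 and 8.93 in undifferentiated and 8.12, 8.01 and 8.66 in differentiated cells. The groups did not overlap but came within 0.26 log2 units, and Ube2t fell 2.11-fold (adjusted p = 0.00875). That call ended without differentiated replicate 1 (adjusted p = 0.0621) and with a term for the start of the array number (log2 difference -0.66, adjusted p = 0.0527). Ube2s, which lengthens chains for the anaphase-promoting complex, read 12.56, 12.50 and 11.52 against 11.38, 11.14 and 11.75, so undifferentiated replicate 3 lay within the differentiated range. It differed by -0.77 without passing (adjusted p = 0.0628), and passed without that replicate at -1.10 (adjusted p = 5.57e-05). It also passed with either filter on dim genes (adjusted p = 0.0493 and 0.0433). Ube2c, the partner enzyme that starts those chains and that the rule leaves out, differed by -0.78 (adjusted p = 0.025). Of 9 measured cell cycle genes, 3 fell (Ccna2, Ccnb1 and Bub1, by 2.56-, 2.44- and 2.09-fold), 0 rose and 6 did not pass. Of all named genes, 10.9% were lower and 8.58% higher. Without undifferentiated replicate 3, 3 cell cycle genes were lower and Cdk1 was higher, against 20.2% and 24.8% of all named genes. Cdk1 read 6.88 to 7.5 log2, near the random probes at 6.59 to 6.81. The part of the cell cycle genes in the Ube2t and Ube2s differences was not tested.

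Several enzymes of DNA damage tolerance and signalling chains fell. Ube2a and Ube2b, the mammalian counterparts of yeast Rad6 that mark the sliding clamp PCNA and histone H2B, both passed: Ube2a fell 1.64-fold (adjusted p = 0.0307), and the change of Ube2b was 1.40-fold (adjusted p = 0.0228). Ube2b read 12.05, 12.06 and 12.07 in undifferentiated and 11.46, 11.69 and 11.58 in differentiated cells, the tightest undifferentiated values of any Ube gene. Ube2a read 11.12, 11.30 and 10.76 against 9.94, 10.62 and 10.49, with 0.15 log2 units between the nearest arrays. Ube2n, the catalytic enzyme of signalling-type chains, read 11.64, 11.77 and 11.24 against 10.67, 10.99 and 10.90 and fell 1.62-fold (adjusted p = 0.0153). Its inactive partner Ube2v2 fell 1.47-fold (adjusted p = 0.0187), and the other partner, Ube2v1, differed by -0.33 without passing (adjusted p = 0.111, and 0.0336 without undifferentiated replicate 3). The calls of Ube2a, Ube2n, Ube2q1 and Ube2v2 likewise ended when the start of the array number entered the fit, and each of these and Ube2b lost its call in 3 to 5 of the 6 fits that left out an array.

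Conjugating enzymes that carry NEDD8 or ISG15 did not pass with all arrays. Ube2m and Ube2f load NEDD8 onto cullins and differed by -0.18 (adjusted p = 0.539) and -0.02 (adjusted p = 0.926). Ube2m read 12.92, 12.70 and 12.02 against 12.39, 12.33 and 12.36, so undifferentiated replicate 3 lay below all 5 other arrays, and it passed without that array at -0.45 (adjusted p = 0.0103). Ube2l6, which carries ISG15, differed by -0.19 (adjusted p = 0.312). Of the broadly used ubiquitin carriers, Ube2d3 differed by -0.35 (adjusted p = 0.0913) with groups that did not overlap, Ube2l3 by -0.31 (adjusted p = 0.183) and Ube2d1 by 0.07 (adjusted p = 0.761). The enzymes of degradation at the endoplasmic reticulum, Ube2j1, Ube2j2 and Ube2g2, differed by -0.39, -0.10 and 0.12. Without undifferentiated replicate 3, Ube2l3 passed at -0.46 (adjusted p = 0.00839) and Ube2j1 at -0.59 (adjusted p = 0.00243). The remaining Ube2 genes that did not pass lay between -0.57 (Ube2e2, adjusted p = 0.0626, and 0.049 without that array) and 0.22 (Ube2u). Of the 26 Ube genes that did not pass, 22 had a 95% interval within 1 log2 unit of 0 on both sides. Probe sequences were not used here, so shared signal between near-identical copies such as Ube2d2a and Ube2d2b was not tested.

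**Figure D3:**
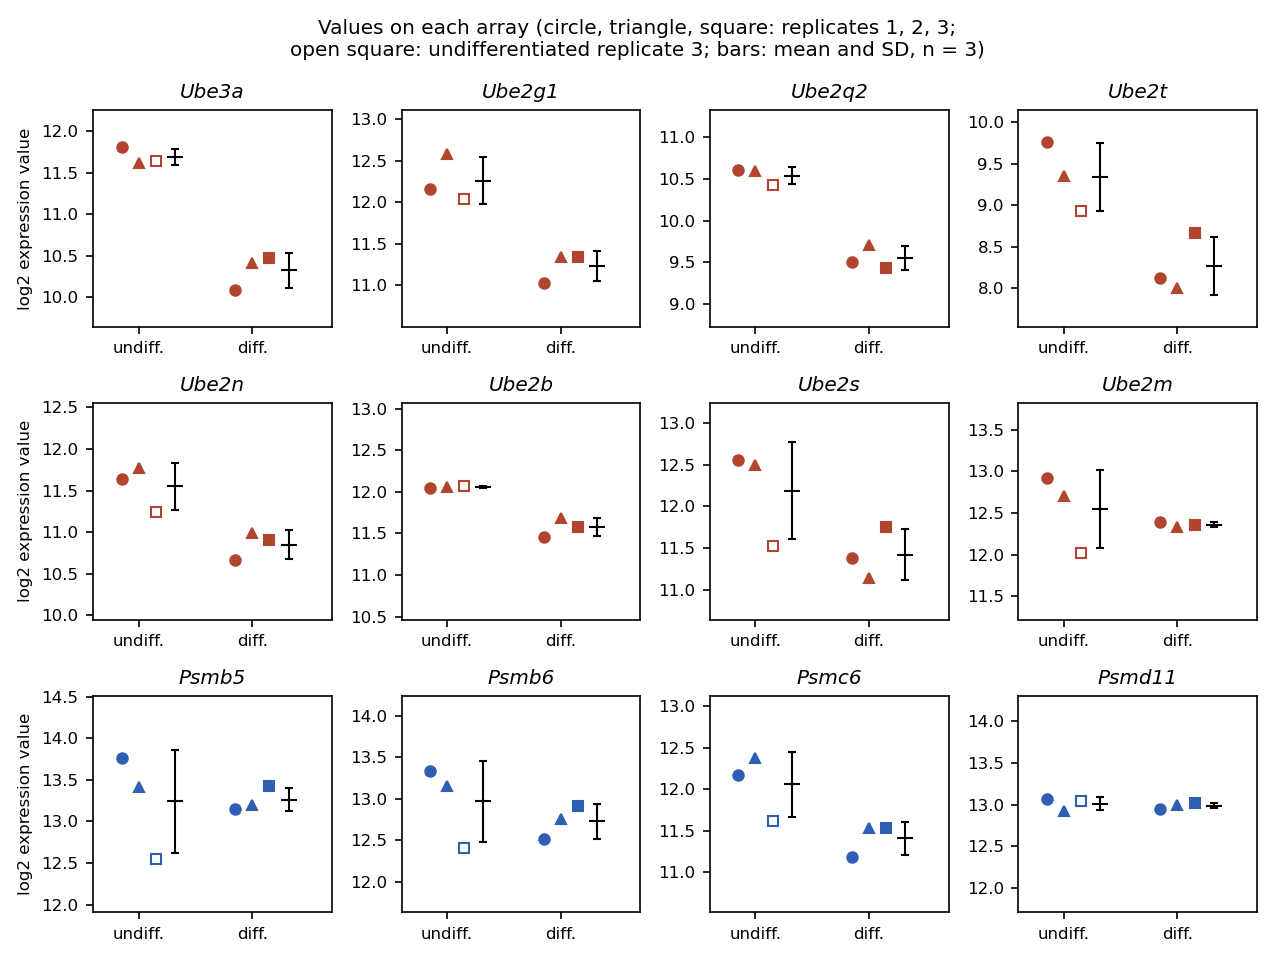
Log2 expression value (y axis) of 8 Ube genes (red) and 4 Psm genes (blue) on each array, by group, with the mean and SD (n = 3). Ube3a, Ube2g1 and Ube2q2 separate the groups on every array, and so do Ube2b, Ube2t, Ube2n and Psmc6 by smaller gaps (0.36, 0.26, 0.24 and 0.09). In Ube2s, Ube2m, Psmb5 and Psmb6 the open square, undifferentiated replicate 3, lies among or below the differentiated arrays.

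In the core particle, 0 of 7 alpha subunit genes passed limma's test (0 at an unadjusted p under 0.05), and 1 of 9 beta subunit genes did. With all arrays, 10.9% of all named genes and 12.0% of those at the level of the Psm genes were lower. Without undifferentiated replicate 3, 3 alpha and 5 beta subunit genes were lower, against 20.2% and 25.4%. The 7 Psma genes, whose products form the gated outer rings, differed by -0.32 (Psma2, which passed without undifferentiated replicate 3 at -0.51, adjusted p = 0.00649) to 0.04 (Psma7). Psmb1, a beta subunit without catalytic activity, read 13.90, 14.11 and 13.83 in undifferentiated and 12.89, 13.51 and 13.63 in differentiated cells. It fell 1.52-fold (adjusted p = 0.0486), with differentiated replicate 1 lowest by 0.63 log2 units, and did not pass in 8 of 16 other settings. The 3 catalytic subunits did not pass with all arrays. Psmb5, with the chymotrypsin-like activity that bortezomib blocks, read 13.76, 13.41 and 12.55 against 13.15, 13.20 and 13.42, a difference of 0.02 with a 95% interval of -0.55 to 0.58 (adjusted p = 0.969). Psmb6, with the caspase-like activity, read 13.33, 13.16 and 12.41 against 12.52, 12.76 and 12.92, a difference of -0.24 (adjusted p = 0.463). In both genes undifferentiated replicate 3 lay below all 5 other arrays. Without it Psmb6 was lower by call at -0.51 (adjusted p = 0.0081), and Psmb5 stood at -0.33 (adjusted p = 0.0694). Psmb7, with the trypsin-like activity, differed by -0.24 (adjusted p = 0.235) and its undifferentiated replicate 3 value of 14.20 lay beside those of 14.25 and 14.49. Psmb10, the interferon-induced counterpart of Psmb7, read 11.43, 11.18 and 10.56 against 11.13, 10.85 and 11.01 and differed by -0.06 (adjusted p = 0.855). The other interferon-induced subunits, Psmb8 and Psmb9, are left out by the rule and differed by 0.17 (adjusted p = 0.631) and 0.19 (adjusted p = 0.369). Psmb11, known from thymic epithelium, differed by 0.13.

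In the regulatory particle, 1 of 6 ATPase genes and 0 of 14 Psmd genes passed. Without undifferentiated replicate 3, 1 ATPase gene (Psmc6) and 1 Psmd gene (Psmd9) were lower. The shares of all named genes called lower were 10.9% with all arrays and 20.2% without that array. Psmc6, an ATPase of the unfolding ring, read 12.17, 12.38 and 11.62 against 11.19, 11.53 and 11.53 and fell 1.56-fold (adjusted p = 0.042). Undifferentiated replicate 3 lay 0.09 log2 units above the nearest differentiated arrays, and the gene did not pass in 7 of 16 other settings. The other 5 ATPase genes differed by -0.14 (Psmc2, adjusted p = 0.471) to 0.25 (Psmc5, adjusted p = 0.198). The Psmd genes differed by -0.31 (Psmd12, unadjusted p = 0.0453) to 0.14 (Psmd1), with a median of 0.02. Psmd11, a scaffold subunit of the lid, read 13.07, 12.92 and 13.04 against 12.95, 13.00 and 13.02, all 6 arrays within 0.15 log2 units, with a difference of -0.02 and a 95% interval of -0.29 to 0.25. Psmd14, the deubiquitinase of the lid, and Psmd4, a ubiquitin receptor, differed by -0.04 (adjusted p = 0.853) and 0.08 (adjusted p = 0.761). Psmd5, Psmd9 and Psmd10 encode chaperones that assemble the particle rather than subunits of it, and differed by -0.24, -0.01 and -0.23. Psmc3ip shares only its name with this group, since it encodes a cofactor of meiotic recombination, and differed by -0.01. Of the 35 Psm genes that did not pass, 35 had a 95% interval within 1 log2 unit of 0 on both sides.

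How undifferentiated replicate 3 compared with the 2 other arrays of its group did not use the differentiated arrays. It lay below both in 29 of 37 Psm genes and 21 of 35 Ube genes, and in 6641 of all 17298 named genes. Among other named genes at the level of the Ube genes it lay below both in 2285 of 3930, and at the level of the Psm genes in 380 of 736. The median of replicate 3 minus the mean of replicates 1 and 2 was -0.30 over Psm genes, -0.18 over Ube genes and 0.03 over all named genes. Over the other named genes at the level of the Ube genes it was -0.18 too, and at the level of the Psm genes -0.11. The beta subunit genes lay lowest at -0.73, the alpha subunit genes at -0.30, the ATPases at -0.21 and the Psmd genes at -0.07. Beta subunit genes had a median SD of 0.43 over the undifferentiated arrays and 0.16 over the differentiated arrays, against 0.20 and 0.12 over all named genes. Set against replicate 3 alone, the differentiated mean was above it in 24 of 37 Psm genes (median 0.17) and below it in 26 of 35 Ube genes (median -0.23). Undifferentiated replicate 3 and the differentiated arrays share the start of their array numbers, and replicates 1 and 2 have another. A fit with that start as a term is therefore the same comparison with replicate 3 alone, an arm of 1 array whose spread is taken from the other arrays. Among members, its largest negative differences were in Ube3a, Ube2q2, Ube2e2, Ube2g1 and Ube2t, at -1.31, -0.88, -0.87, -0.81 and -0.66. Its largest positive differences were in Psmb3, Psmb5, Psmd9, Ube2g2, Psmd13 and Psmd3, at 0.72, 0.71, 0.64, 0.62, 0.54 and 0.52. Without replicate 3, Psmb3 and Psmd9 were called lower, at -0.35 (adjusted p = 0.0327) and -0.34 (adjusted p = 0.0345). The Psm median was 0.17 with the term, -0.04 without the term and -0.17 without replicate 3. The Ube median was -0.23, -0.33 and -0.43.

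**Figure D4:**
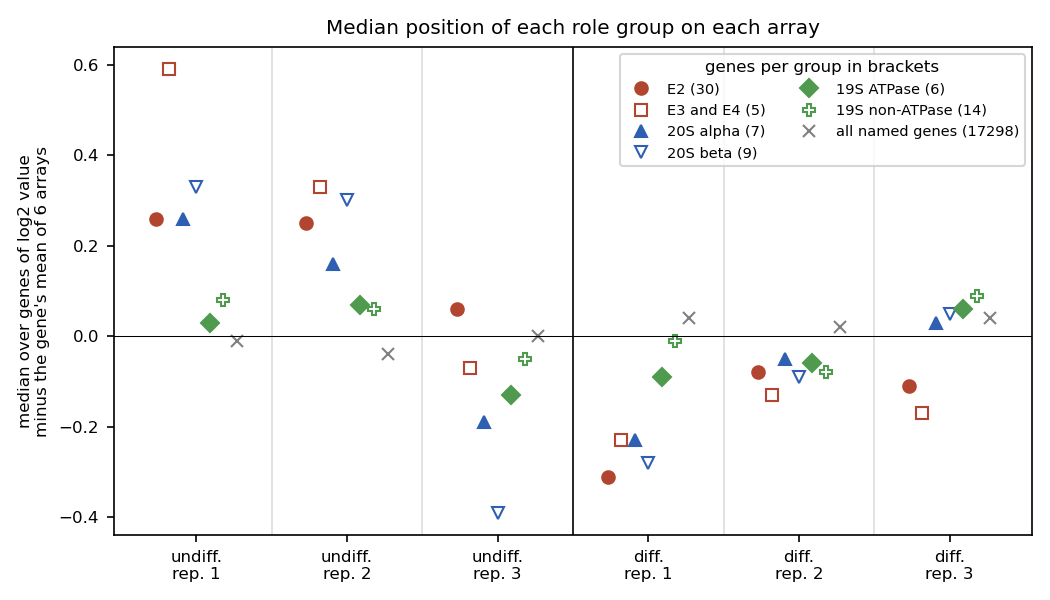
Median over the genes of each role group of the log2 value minus that gene's mean over 6 arrays (y axis), for each array (x axis). E2 genes are above 0 on all 3 undifferentiated arrays and below 0 on all 3 differentiated arrays, whereas the 20S beta (Psmb) genes are lowest on undifferentiated replicate 3 at -0.39.

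Other genes of the route were read from lists of their partners, whose counts stand beside 10.9% lower and 8.58% higher among all named genes, or 20.2% and 24.8% without undifferentiated replicate 3. Among 8 genes of E1 enzymes, 2 fell, 0 rose and 6 did not pass, and without that array Uba7 was lower too. Uba6, which charges ubiquitin and is the E1 for Ube2z, read 8.64, 8.39 and 7.77 against 6.57, 7.02 and 7.02 and fell 2.64-fold (adjusted p = 0.00182). Its lowest undifferentiated value, again replicate 3, was 0.75 log2 units above the highest differentiated value. The differentiated values of Uba6 lay near the random probes, which read 6.71 to 6.81 on those arrays, so the size of its fold is uncertain. Nae1, a subunit of the NEDD8 E1, fell 1.60-fold (adjusted p = 0.02), while Uba1, the main ubiquitin E1, differed by 0.10 (adjusted p = 0.631) and Ube2z by 0.10 (adjusted p = 0.653).

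Some ligase genes outside the Ube names fell. Of 10 HECT and U-box ligase genes, 3 fell (against 10.9% of all named genes), 0 rose and 7 did not pass, with a median of -0.31. That array left out, 4 were lower, Smurf1 among them. Nedd4l, a HECT ligase of ion channels, read 9.52, 9.31 and 9.01 against 6.72, 7.21 and 7.12 and fell 4.79-fold (adjusted p = 1.66e-05), while Huwe1 fell by 0.59 log2 units (adjusted p = 0.0143) and Trip12 by 0.55 (adjusted p = 0.0166). The differentiated values of Nedd4l lay near the random probes, which read 6.71 to 6.81 on those arrays, so the size of its fold is uncertain. Of 15 genes of cullin ligases, 4 fell, 0 rose and 11 did not pass, and without that array 5 were lower, with Cul2. The scaffold gene Cul5 fell 2.12-fold (adjusted p = 0.00154), the substrate receptor genes Skp2 by 1.82-fold (adjusted p = 0.0165) and Fbxw7 by 1.41-fold (adjusted p = 0.0234), and the RING subunit gene Rbx1 fell 1.45-fold (adjusted p = 0.0245). Of 15 deubiquitinase genes, 2 fell (against 10.9% of all named genes), 0 rose and 13 did not pass. Without undifferentiated replicate 3, 4 were lower, with Otub1 and Uchl3, and 2 were higher, Uchl1 and Usp2. Cyld, which removes signalling-type chains of the kind that Ube2n builds, fell 1.79-fold (adjusted p = 0.00272), and Usp14, which works on the proteasome, fell 1.63-fold (adjusted p = 0.0157). Of 10 genes of ubiquitin receptors and the p97 complex, 1 fell, the shuttle factor gene Ubqln2 (2.18-fold, adjusted p = 0.00105), a share near that of all named genes. That array left out, 3 were lower, with Nploc4 and Ufd1. Of 8 ubiquitin-like proteins, 1 fell, Atg12 of autophagy (1.39-fold, adjusted p = 0.0237), and without that array 3 were lower and 1 was higher.

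With all arrays, 2 genes of these lists rose, where 8.58% of all named genes did. Psme2, a subunit of the activator PA28, read 11.64, 12.21 and 12.62 in undifferentiated and 13.16, 12.92 and 12.92 in differentiated cells and rose 1.80-fold (adjusted p = 0.0215), while its partner Psme1 differed by -0.11 (adjusted p = 0.664). Ddi2, the protease that activates NFE2L1, read 12.44, 12.22 and 12.07 against 12.96, 12.89 and 12.91 and rose 1.60-fold (adjusted p = 0.00713). Nfe2l1 itself read 14.43, 14.30 and 14.78 against 14.84, 14.89 and 14.85, a difference of 0.35 that did not pass (adjusted p = 0.109) and that passed without undifferentiated replicate 3 (adjusted p = 0.00475). Its relative Nfe2l2 differed by -0.26 (adjusted p = 0.242, and 0.0231 without that array). Of the 7 genes that control proteasome genes, 2 were higher and 2 lower without that array, Mafg being the other lower. The antioxidant core was found in the window around the start of 5 Psm genes. Of these, Psmb5, Psmb6, Psmd9 and Psmd12 differed by 0.02, -0.24, -0.01 and -0.31 and did not pass with all arrays. Psmc6 was 1 of the 2 Psm genes that fell, and the other, Psmb1, had no matched window and was not searched. None of 4 measured proteasome assembly chaperone genes passed, with differences from -0.30 to 0.12 (0 at an unadjusted p under 0.05 in limma, and 1 lower without undifferentiated replicate 3).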

How the data were processed

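Members and gene lists were chosen with earlier results of these data known. The authors deposited linear expression intensity per feature, made with RMA per the submitters' processing notes; its version and annotation: not given in the sources used here. Log2 was taken without further normalization. Features were named by RefSeq transcript through a RefSeq gene table (GRCm38.p6, names only): 17849 of 42586 features had 1 symbol. Where a gene had more than 1 feature (467 genes), the brightest by mean was taken. A deposited series-wide table matched the array files exactly (largest log2 difference 0).

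Differences were fitted over all 17298 named genes with limma 3.58.1 in R 4.3.3 (lmFit, eBayes, 2-sided) on 3 arrays per group, with Benjamini-Hochberg adjustment over all of them. The labels call the samples biological triplicates. The fit was tested on simulated data before use. Alternatives were quantile normalization, equal medians, cyclic loess, 2 filters on dim genes, array weights, a term for the start of the array number, a replicate block, feature means, the series table, and leaving out each array. The named members were the largest called differences per family and a list taken by role whatever their values, and a gene completing a small count or a range was named after its values were seen. Genes of like level were all other named genes between the quartiles of a family's mean values. Promoter windows are RefSeq's. Results of some genes are not reported here. Precision is limited by 3 arrays per group.

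Samples were not paired by replicate number in the main fit. Correlations of deviations from the group means were 0.02, 0.13 and 0.07 for replicates 1, 2 and 3, and -0.11 to 0.04 between unlike numbers. With 3 arrays per group these values cannot exclude a pairing.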

Additional observations from a re-analysis of the deposited data

How the results depend on the processing

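Over 16 alternatives, the 27 named members gave 431 values: 370 kept their side of the threshold, 43 lost a call and 18 gained one, and none of their calls made with all arrays changed sign. Quantile normalization left 8 Ube and 1 Psm genes lower, and cyclic loess 8 and 0. With the replicate block, 10 Ube genes and 2 Psm genes were lower, and of all named genes 3452 were called against 3367. With a term for the start of the array number, 1 Ube gene and 5 Psm genes were higher, 0 Psm genes were lower, the Psm median reversed to 0.17 and the gap of the family medians was -0.39. Psmb3 and Psmd9, higher there, were lower with array weights and without undifferentiated replicate 3. Array weights called 11267 named genes, with 26 Ube genes lower and 3 higher, 16 Psm genes lower and 2 higher, and a gap of -0.19. That fit stopped before it converged and gave undifferentiated replicate 2 a weight of 21.56 against 0.16 to 1.45 for the others. Leaving out each array in turn gave 1354 to 7781 called genes, 3 to 19 lower Ube genes, 0 to 10 lower Psm genes, medians of -0.43 to -0.24 (Ube) and -0.17 to 0.01 (Psm), and a gap of -0.39 to -0.22. The lowest count came without differentiated replicate 1 and the highest without undifferentiated replicate 3. The cause was not tested. The stricter filter on dim genes did not test Ube2v2.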
